A study of Arabidopsis thaliana with 12 samples.

Results

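Seedlings treated with 5-aza-2'-deoxycytidine (5-AC) and seedlings of the ddm1 mutant were compared directly, array against array, over 22746 probe sets of the Affymetrix ATH1 microarray of Arabidopsis thaliana. The members are the 3 arrays titled as seedlings with 5-AC and the 3 arrays titled as ddm1 mutant seedlings, 6 of the 12 arrays of the series. The 5-AC seedlings were wild type of the ecotype Ws and received 20 mg/L 5-AC in DMSO. The ddm1 seedlings, also Ws, were homozygous for a single T-DNA insertion in DDM1 and received DMSO alone. Their line had been backcrossed and then selfed for several generations. Both groups grew in liquid medium with sucrose under constant light, the medium and its supplements were renewed after 5 days, and whole seedlings were taken at 10 days by the labels, while the methods of the study give a later day. The other arrays, 3 of Ws with DMSO and 3 of Ws with trichostatin A, took no part in the test, and Ws values are given only to show where a level stood.

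Both conditions lower cytosine methylation, by different routes. 5-AC is a nucleoside analog that is built into newly made DNA and traps the methyltransferases that copy methylation after replication, so it acts in dividing cells and also leaves DNA with bound protein. DDM1 is a chromatin remodeling factor that lets methyltransferases reach the nucleosomal DNA of heterochromatin, and transposable elements of the pericentromeres are silenced through it. In a mutant line, methylation is lost over generations and in every cell.

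On 8753 of the 22746 probe sets (38.5%) the groups differed at an adjusted p under 0.05 (limma with Benjamini-Hochberg adjustment over all probe sets, two-sided). Of these, 4720 (20.8% of all) were higher after 5-AC and 4033 (17.7%) were higher in ddm1. The median size of a called difference was 1.26 on the log2 scale, on which a difference of 1 is a 2-fold change. Differences of over 2-fold numbered 2689 (11.8%) on the 5-AC side and 2797 (12.3%) on the ddm1 side, and those of over 16-fold numbered 177 (0.778%) and 238 (1.05%). With the arrays set to the mean of 3 reference genes (SAND, UBC21 and TIP41L) instead, the share of calls that were higher after 5-AC went from 53.9% to 43.7%, and the median of all probe sets moved by -0.16. UBC21 and TIP41L were themselves called, on opposite sides. With the arrays set to their medians, the share went to 57.1% and the median moved by 0.06. The 3 arrays of one group lay wholly above those of the other for 61.5% of all probe sets, including many with values near the floor of the scale, so that separation of the arrays alone is a weak mark.

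**Figure D1:**
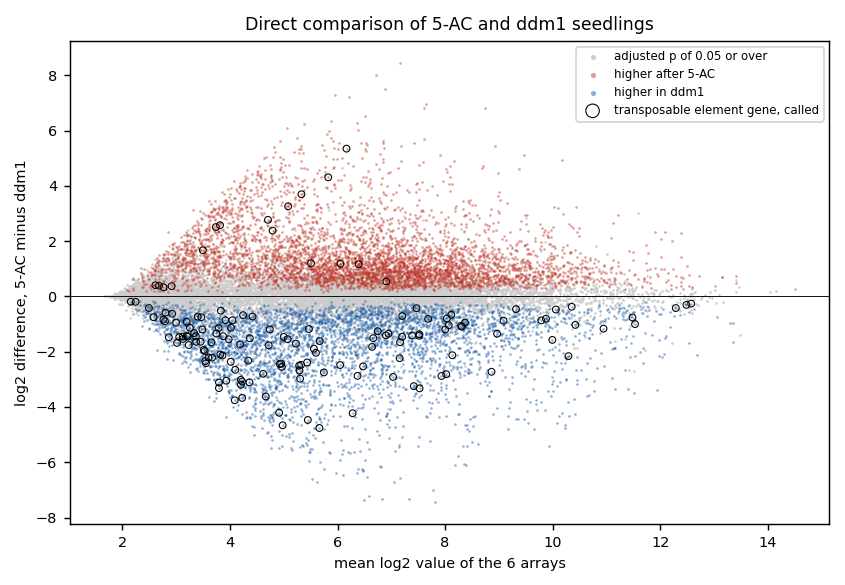
Log2 difference between 5-AC and ddm1 (y axis, positive where 5-AC is higher) against the mean log2 value of the 6 arrays (x axis) for 22746 probe sets, with called probe sets in red (higher after 5-AC) and blue (higher in ddm1) and called transposable element genes ringed. Calls reach from 8.46 at BG3 to -7.42 at AT3G29410, and most rings lie below 0.

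The Ws arrays, which had no part in the test, stood much nearer to ddm1 than to 5-AC for most of these genes. Among the probe sets higher after 5-AC, the Ws mean was nearer to ddm1 in 4568 of 4720 (96.8%), and among those higher in ddm1 it was nearer to 5-AC in only 291 of 4033 (7.22%). Transposable element genes made up 131 of these 291, and for all 131 transposable element probe sets that were higher in ddm1 the Ws mean was nearer to 5-AC. Outside transposable elements, Ws was nearer to 5-AC in 160 of 3902 (4.1%).

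Replicates of one group resembled each other more than the other group. The Pearson correlation over all probe sets was 0.976 to 0.988 between 5-AC arrays and 0.988 to 0.992 between ddm1 arrays, and the third 5-AC array had a mean correlation of 0.891 with the ddm1 arrays, against 0.862 and 0.864 for the other two. It was the 5-AC array nearest to the ddm1 mean on 47.8% of the called probe sets, and its values are named below where it stands apart. The DDM1 probe set read 7.04, 7.53 and 7.26 after 5-AC and 7.91, 7.63 and 7.59 in ddm1, with 4.83, 4.64 and 5.21 in Ws. Where its probes lie relative to the insertion is not given in the sources used here, so it does not check the mutant label. The direct difference was -0.44 (95% interval -0.84 to -0.03, adjusted p = 0.092, limma).

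Few transposable element genes were higher after 5-AC, and their calls lay mostly on the ddm1 side. Of 927 probe sets for genes that RefSeq types as pseudogenes, the class that holds transposable elements, 131 (14.1%) were higher in ddm1 and 17 (1.83%) after 5-AC, against 17.7% and 20.8% of all probe sets. Genes are called transposable elements here by that type alone, so other pseudogenes may be among the 927. The median difference was 0.03 both for the 927 and for all probe sets, and 426 of them were near the floor in both groups, meaning under the 25th percentile on each of the 6 arrays. Leaving out the third 5-AC array took the counts to 113 and 29.

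In 71 of the 131 probe sets higher in ddm1 the 5-AC mean was within 2-fold of Ws, and in the other 60 it was over 2-fold above Ws yet below ddm1. AT3G32110 is of the first kind. It read 2.15, 2.14 and 2.12 after 5-AC and 5.48, 5.42 and 5.47 in ddm1, with a Ws mean of 2.13. The 5-AC arrays thus lay at the level of Ws, and the difference was -3.32 ± 0.04 (SE, n = 3 and 3, adjusted p = 1.0e-05, limma). AT4G04270 read 2.76, 2.80 and 2.39 after 5-AC against 7.18, 7.34 and 7.42 in ddm1, a difference of -4.66 ± 0.14 (SE). AT3G33080 had the largest difference of the class, with 2.96, 3.95 and 2.94 against 8.06, 8.27 and 7.81 and a difference of -4.76 ± 0.32 (SE). The Ws means of both were low, at 2.33 and 2.69.

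AT1G35590 and AT2G06180 are of the second kind, raised over Ws in both groups and further in ddm1. AT1G35590 read 5.76, 6.25 and 5.57 after 5-AC and 8.86, 9.45 and 9.25 in ddm1, over a Ws mean of 3.22. Its probe set matches several sequences, so copies cannot be told apart. AT2G06180 read 4.198, 4.098 and 4.204 after 5-AC and 8.83, 8.28 and 8.07 in ddm1, over a Ws mean of 2.81. The differences were -3.33 ± 0.24 and -4.23 ± 0.21 (SE). Both genes were picked among probe sets whose groups do not overlap. AT2G13000 (-4.47), AT2G11140 (-4.21), AT1G45090 (-3.76), AT3G29787 (-3.67) and AT3G31540 (-3.62) completed the 10 largest differences on the ddm1 side. All 10 lie in the pericentromeric windows, which also hold 749 of the 927 probe sets and 113 of the 131 higher in ddm1.

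Position and sequence copy number went with the counts. In the pericentromere, 113 of 749 probe sets (15.1%) were higher in ddm1 and 9 after 5-AC, and on the chromosome arms 18 of 177 (10.2%) were higher in ddm1 and 7 after 5-AC. Probe sets that match several sequences were higher in ddm1 in 62 of 190 cases (32.6%), and those for 1 sequence in 69 of 737 (9.36%). The median difference of pericentromeric probe sets with several sequences was -0.16, and that of the single-sequence ones was 0.03. Split by both, the shares higher in ddm1 were closer by position. They were 10.3% (pericentromere) and 5.63% (arms) for single-sequence probe sets, and 33.5% and 28.6% for those with several sequences. Of the 426 probe sets near the floor in both groups only 2 were called, and how these 426 divide by copy number was not counted. The differences between the classes were not tested.

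**Figure D2:**
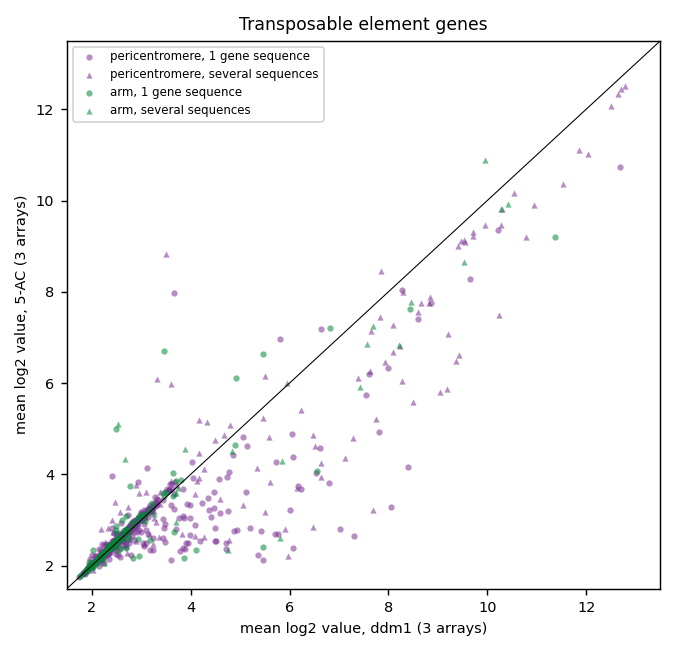
Mean log2 value of 3 arrays after 5-AC (y axis) against ddm1 (x axis) for transposable element probe sets, coloured by pericentromere or arm and shaped by whether 1 or several gene sequences are matched. The line marks equal levels. Points near the lower left are at the floor in both groups, most points at higher levels lie below the line, and a few, led by AT5G35010, lie above it.

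Elements at high levels in both groups held more calls than the class as a whole. Above the median of the array on all 6 arrays stood 68 of the 927 probe sets, and of these 44 were higher in ddm1, 3 after 5-AC and 21 in neither, with a median difference of -0.82. The share of calls among all probe sets at such levels was not computed, so the rise in calls may not be particular to the class. Among all probe sets with a mean at or above the median, tested alone, 3756 were higher after 5-AC and 2798 in ddm1. For the transposable element probe sets among them the counts were 9 and 64. AT5G43800 read 7.64, 7.78 and 7.47 after 5-AC and 8.25, 8.49 and 8.55 in ddm1, against 2.07 in Ws on average. AT3G29650 stood at 7.76 ± 0.03 and 8.86 ± 0.16 (SD, n = 3). At AT1G37160 the difference was -0.29 (95% interval -0.69 to 0.12, adjusted p = 0.24, limma), with a mean of 8.0003 after 5-AC and 8.29 in ddm1, and 2.196 in Ws. Fitted with the replicate number as a block, it was called (adjusted p = 0.037, limma). AT3G33066 went the other way, with 8.44, 8.84 and 8.11 after 5-AC against 8.07, 7.72 and 7.74, a difference of 0.62 that did not pass (adjusted p = 0.080, limma). AT3G47330 differed by -0.43 and lost its call when any 1 array except the second 5-AC array was left out (adjusted p from 0.056 to 0.082, limma), as it did with the replicate block (adjusted p = 0.063). Of the 35 probe sets that the study lists as raised in ddm1 over Ws, 26 were higher in ddm1 than after 5-AC and 9 were not called. That list was drawn from these same ddm1 arrays, so its direction is not independent.

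The smaller class was higher after 5-AC, and 15 of its 17 probe sets had a ddm1 mean within 2-fold of Ws. AT5G35010, with several matching sequences, read 9.23, 9.77 and 7.52 after 5-AC and 3.51, 3.52 and 3.45 in ddm1, a difference of 5.34 ± 0.60 (SE, adjusted p = 0.0023, limma). AT1G37060 read 8.01, 8.27 and 7.66 against 3.81, 3.05 and 4.17, with Ws at 2.81 on average. MUG2, a gene of the MUSTANG family that descends from a transposase, stood at 6.71, 6.67 and 6.75 after 5-AC and at 3.40, 3.59 and 3.37 in ddm1. Its difference of 3.26 ± 0.07 (SE) exceeded the spread of either group many times over. AT4G03970 (2.77), AT1G21220 (2.51), AT4G07680 (2.38), AT3G14800 (1.198) and AT5G20880 (1.18) followed. AT2G24920 and AT4G20500 also passed, at 2.57 and 1.67, but lost their calls when 1 array was left out (adjusted p from 0.069 to 0.11 and from 0.063 to 0.13, limma) or the replicate block was used (adjusted p = 0.070 and 0.087).

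**Figure D3:**
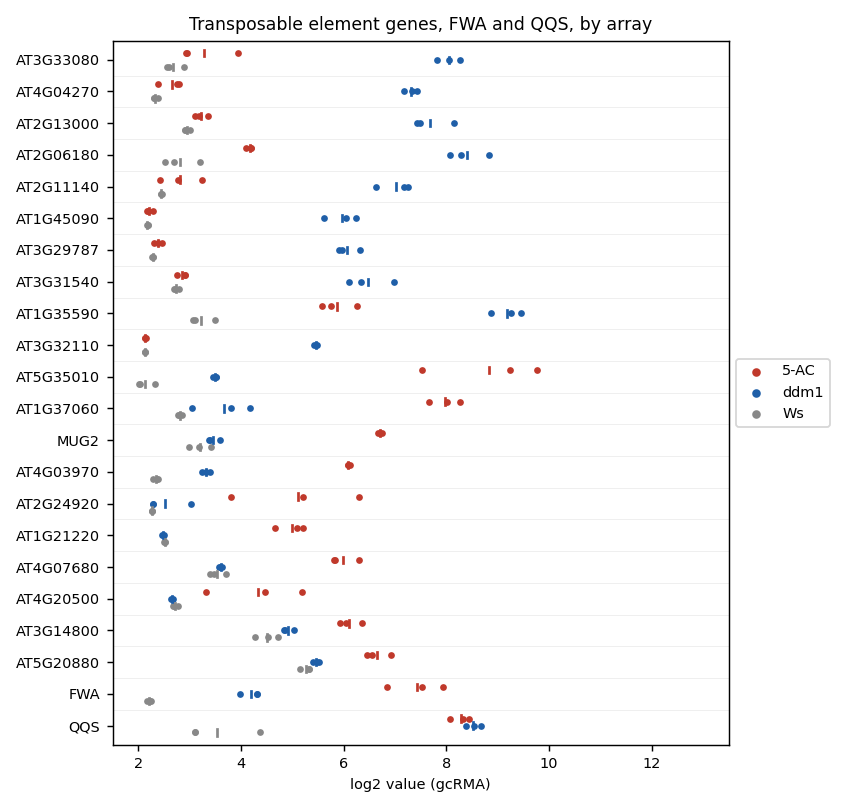
Log2 value (x axis) on each array for the 10 transposable element probe sets with the largest difference on each side and for FWA and QQS, with 5-AC in red, ddm1 in blue, Ws in gray and a bar at the mean of 3 arrays. The upper 10 rows have ddm1 high and 5-AC near Ws or between Ws and ddm1, the next 10 have 5-AC high and ddm1 near Ws, and QQS has both groups above Ws.

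Genes that DNA methylation keeps silent in wild type differed in how the groups stood. FWA, a homeobox gene silenced by methylated repeats at its start, read 7.52, 7.94 and 6.85 after 5-AC, 3.98, 4.31 and 4.31 in ddm1 and 2.24, 2.17 and 2.24 in Ws. The 3 groups did not overlap, and 5-AC exceeded ddm1 by 3.24 ± 0.30 (SE, adjusted p = 0.0013, limma). QQS, an orphan gene that affects starch, read 8.33, 8.07 and 8.44 after 5-AC and 8.67, 8.53 and 8.38 in ddm1, with a Ws mean of 3.53. Here the groups overlapped, and the difference was -0.24 (95% interval -0.58 to 0.09, adjusted p = 0.21, limma). MPC, the other gene of that list with a probe set, differed by 0.90 (adjusted p = 0.11, limma) and was called without the third 5-AC array, at 1.29 (adjusted p = 4.2e-04, limma). ROS1, a DNA glycosylase that removes methylcytosine, was near the floor in both, at 2.19, 2.07 and 2.08 after 5-AC and 2.17, 2.55 and 2.19 in ddm1, while Ws read 3.52, 3.66 and 3.66. Its direct difference was -0.19 (95% interval -0.50 to 0.12, adjusted p = 0.29, limma).

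In the list of the silencing machinery, only 6 of 27 members had a named probe set. Of these 6, DDM1 was not called and the other 5 were higher after 5-AC. They were the CG methyltransferase MET1 (1.31), the histone methyltransferases SUVH4 (2.32) and ATXR5 (2.04), the largest subunit of RNA polymerase IV, NRPD1 (2.48), and the chromatin assembly subunit FAS2 (1.57). MET1 read 7.21, 7.62 and 7.98 after 5-AC and 6.27, 6.35 and 6.26 in ddm1. These 6 genes are named only through tables of genes that the study picked as changed after 5-AC on these arrays. Of the 1724 probe sets named in that way, 98.0% were called, against 35.1% of the 13513 named by the platform annotation, so counts over them say little beyond the choice, and the source of the names is given with each count below. List counts below cover only members with a named probe set. They stand beside 20.8% higher and 17.7% lower after 5-AC among all probe sets.

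DNA damage genes gave some of the highest contrasts. Of the 19 genes in the damage response list, only 9 had a named probe set, all through the study's tables of changed genes. All 9 were higher after 5-AC, with a median difference of 3.67. That choice of genes largely sets the count, and the unnamed members were not seen. CYCB1;1, a mitotic cyclin that the damage regulator SOG1 also induces, read 11.33, 11.65 and 11.95 after 5-AC and 6.45, 6.14 and 6.01 in ddm1. BRCA1, a repair and checkpoint gene, read 9.02, 8.24 and 8.64 against 3.17, 3.31 and 3.29. The CDK inhibitor SMR5 stood at 9.93, 9.67 and 9.35 against 3.46, 4.67 and 3.97. No array of one group came near the other group in these 3 genes, whose differences were 5.44 ± 0.20, 5.38 ± 0.21 and 5.62 ± 0.35 (SE, adjusted p from 1.3e-04 to 0.00044, limma). PARP2, a poly(ADP-ribose) polymerase, differed by 4.01, XRI1 by 3.67, the CDK inhibitor SMR4 by 3.65, the ribonucleotide reductase subunit TSO2 by 3.19, GMI1 by 3.01 and the checkpoint clamp loader RAD17 by 2.74.

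Among break repair and recombination genes, 2 of 4 platform-named members were higher after 5-AC and none in ddm1, and 6 of 6 named through the study's tables were higher. MND1, which acts with recombinases, is named by the platform and read 7.19, 6.55 and 7.44 after 5-AC and 3.28, 3.14 and 3.42 in ddm1. DMC1, a recombinase of meiosis, read 6.49, 6.58 and 5.83 against 3.57, 2.88 and 3.46. FAN1, a nuclease of crosslink repair, was the other platform-named call, at 0.85, and lost it with the replicate block (adjusted p = 0.052, limma). Other members called were the replication protein RPA1E (3.31), the cohesin SYN2 (2.54) and the meiotic MutS homolog MSH4 (2.19). In the list of demethylases and base excision repair, 2 of 8 platform-named probe sets were higher after 5-AC, both of them for the demethylase DME (1.13 and 0.94), while its other probe set differed by 0.02 and was not called. Among those named through the study's tables, the DNA glycosylase FPG1 was higher after 5-AC by 1.84, and OGG1 was lower by a log2 difference of -0.70.

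Replication genes were split. Of 3 platform-named members 1 was higher after 5-AC, 1 was lower and 1 was not called, and 4 of 5 named through the study's tables were higher and 1 was lower. ORC6, a subunit of the origin recognition complex, stood at 7.50, 7.83 and 7.54 against 5.34, 5.12 and 5.46 in ddm1, and CDC6, which loads the helicase at origins, stood at 5.00, 4.65 and 4.72 against 2.55, 2.42 and 2.71. The ribonucleotide reductase RNR1 (2.03), the replisome factor ETG1 (1.67) and the polymerase alpha subunit ICU2 (1.55) were higher too, while the helicase subunit MCM7 (-1.22) and the helicase partner CDC45 (-0.67) were lower. The call of CDC45 was lost without single arrays (adjusted p from 0.050 to 0.054, limma). Mitotic genes were lower after 5-AC in 3 of 4 platform-named and 6 of 6 further members, and none was higher. KN, the syntaxin of the cell plate, read 4.098, 4.124 and 3.819 after 5-AC and 7.43, 7.16 and 7.44 in ddm1. Topoisomerase TOPII read 2.32, 2.35 and 2.50 against 5.81, 5.24 and 5.48, the kinesin HIK differed by -2.89, the Aurora kinase AUR1 by -2.72, the cyclins CYCA1;1 and CYCB1;4 by -2.61 and -2.46, TPX2 by -1.82, CDKB2;2 by -1.75 and AUR2 by -1.39. AUR2 lost its call without single arrays (adjusted p from 0.083 to 0.12, limma). CYCB1;1 and CYCB1;4, both B1 cyclins, thus lay on opposite sides. The histone H2A.Z genes HTA8 and HTA11 did so as well, the first higher by 2.08 after 5-AC and the second lower (-2.31). In whole seedlings, fewer cells of a type and less RNA per cell cannot be told apart, here and in the results that follow.

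**Figure D4:**
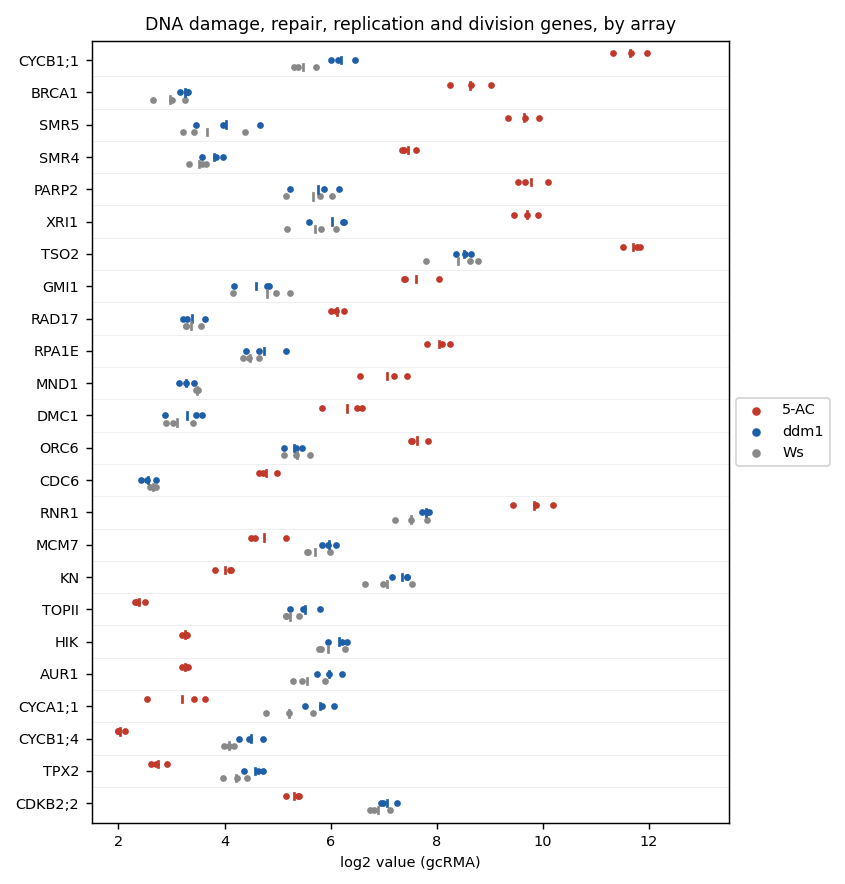
Log2 value (x axis) on each array for genes of DNA damage response, repair, replication and cell division, with 5-AC in red, ddm1 in blue, Ws in gray and a bar at the mean of 3 arrays. From CYCB1;1 to RNR1 the 5-AC arrays are the highest, and from MCM7 down they are the lowest, and the Ws points lie near those of ddm1.

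Plastid genes were lower after 5-AC almost without exception. Of 77 probe sets for plastid-encoded genes, 70 (90.9%, against 17.7% of all probe sets) were higher in ddm1, 7 were not called and none was higher after 5-AC, with a median difference of -1.90. rbcL, the large subunit of Rubisco, read 6.07, 5.84 and 6.58 after 5-AC and 10.38, 11.45 and 10.76 in ddm1. psaA, a core protein of photosystem I, read 5.00, 5.21 and 6.22 against 9.56, 10.22 and 9.81. Both gaps were far wider than the spread of either group, at -4.70 ± 0.34 and -4.38 ± 0.38 (SE). All 10 genes of the NDH complex, which cycles electrons around photosystem I, were lower, with a median of -3.04 and the lowest values at ndhK (-4.22) and ndhA (-4.203). All 15 of photosystem II were lower as well, with a median of -2.18 and psbA, its D1 protein, at -1.45. Ribosomal protein genes had a median of -1.59, with 13 of 15 called, and those of the plastid RNA polymerase a median of -1.41, with 3 of 4 called. psaJ (-0.54), rpoB (-0.97), rps2 (-1.45) and rps4 (-0.19) were the single-gene probe sets that did not pass.

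Mitochondrial genes did not share the shift. Of 23 mitochondrial probe sets 2 (8.7%) were higher after 5-AC and 2 in ddm1, and their median was 0.04. cox2, a subunit of cytochrome oxidase, read 6.22, 6.53 and 6.62 after 5-AC and 4.54, 5.09 and 4.45 in ddm1, and cox1 read 9.68, 9.65 and 9.37 against 8.63, 8.33 and 8.40. On the ddm1 side stood nad9 and orfX, by differences of -0.79 and -0.33, and both lost their calls when single arrays were left out (adjusted p from 0.058 to 0.11, limma), orfX also with the replicate block (adjusted p = 0.061). Among nuclear genes that respond to mitochondrial stress, neither of the 2 platform-named members passed, with UPOX at 1.54 (adjusted p = 0.11, limma) and NDB2 at -0.20 (adjusted p = 0.55, limma). The 2 named through the study's tables were higher after 5-AC, the AAA ATPase BCS1 by 4.08 and the dicarboxylate carrier DIC2 by 2.96.

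Nuclear photosynthesis genes were lower after 5-AC in 7 of 9 platform-named members, against 17.7% of all probe sets. The 4 further members, named through the study's tables of changed genes, were all lower too. Only 13 of the 43 genes in that list had a named probe set. The third 5-AC array was the one nearest to ddm1 in each of the 10 named here. LHCB2.4, a light-harvesting protein, read 2.25, 2.53 and 4.28 after 5-AC and 8.27, 9.01 and 8.83 in ddm1. PRK, the phosphoribulokinase of the Calvin cycle, read 7.56, 7.23 and 9.08 against 12.03, 12.51 and 12.27. LHCB4.2 spread most, with 4.33, 3.25 and 7.75 after 5-AC against 10.69, 10.01 and 10.31. The differences were -5.68 ± 0.60, -4.32 ± 0.52 and -5.23 ± 1.22 (SE), and that of LHCB4.2 lost its call when any 1 array except the third 5-AC array was left out (adjusted p from 0.052 to 0.081, limma) and with the replicate number as a block (adjusted p = 0.055, limma). The photosystem genes PSBO2 (-3.36), PSAN (-3.18) and PSBY (-3.08) were lower. LHCB4.1 (-2.59) and the Rubisco activase RCA (-2.13) were called but lost their calls in the same way (adjusted p from 0.053 to 0.098 without single arrays, and 0.063 and 0.067 with the block, limma), and PSAE-1 (-2.70, adjusted p = 0.080, limma) and PSBW (-1.86, adjusted p = 0.052, limma) did not pass. Chlorophyll synthesis genes were lower in 2 of 2 platform-named and 2 of 2 further cases, from PORB, the light-dependent reductase (-3.38), over CHLM (-1.95) and HEMA1 (-1.32) to CHLD (-0.96). The call of CHLM was lost without single arrays (adjusted p from 0.053 to 0.055, limma). In the list of plastid transcription machinery the only platform-named member, the polymerase RPOTMP, differed by 0.53 and did not pass (adjusted p = 0.16, limma). The 4 sigma factors named through the study's tables were lower, with SIG4 at -2.98, SIG1 at -2.58, SIG6 at -0.92 and SIG2 at -0.55, the last a call lost without single arrays (adjusted p from 0.057 to 0.068, limma).

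**Figure D5:**
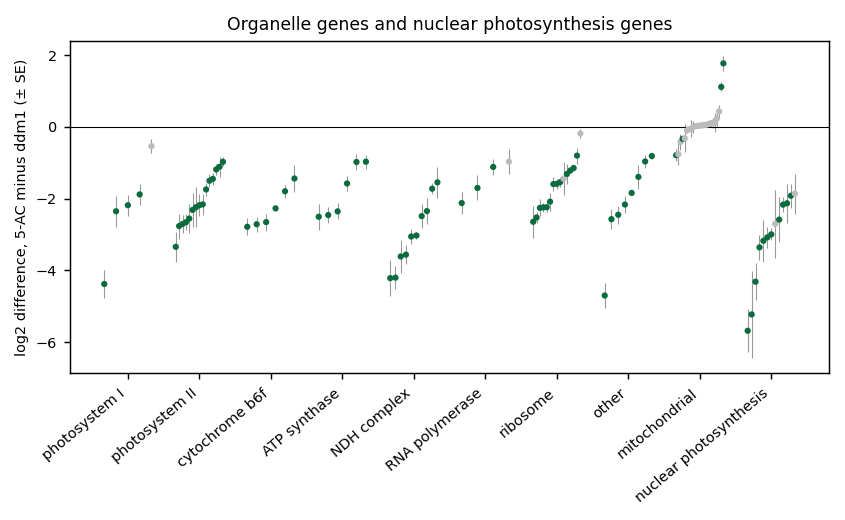
Log2 difference between 5-AC and ddm1 (y axis, error bars 1 SE of the limma fit) for plastid-encoded genes by complex, mitochondrial genes and nuclear photosynthesis genes, 1 point per probe set, green where called. Plastid points run from -4.70 at rbcL to -0.19 at rps4, all below 0, and the mitochondrial points gather at 0.

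Defence genes were among the highest after 5-AC. BG3, a beta-1,3-glucanase, had the largest difference of all, with 11.33, 11.52 and 11.34 after 5-AC and 2.99, 2.88 and 2.96 in ddm1. The gap of 8.46 ± 0.07 (SE, adjusted p = 6.4e-06, limma) is a fold of 351, although the ddm1 values are low and the fold rests on how well the floor was modeled. PR2, a glucanase that marks salicylic acid signaling, read 12.74, 12.29 and 11.42 after 5-AC and 5.64, 4.39 and 5.93 in ddm1, while Ws read 2.75, 2.56 and 5.84. PBS3, needed for salicylic acid to accumulate, read 10.42, 9.80 and 9.07 against 3.18, 3.33 and 3.23. In the salicylic acid list 14 of 14 probe sets named through the study's tables and the only platform-named one, SAG101 (2.78), were higher. They include ICS1, the isochorismate synthase that starts the pathway (3.50), NIMIN1 (5.32), PR5 (4.05), EDS1 (2.07) and the transcription factor WRKY40 (6.36). WRKY genes were higher in 4 of 7 platform-named and 12 of 16 further cases, with WRKY48 at 5.29, and lower in 0 of 7 and 4 of 16. The putative chitinase AT2G43620 (6.83) also stood in the 12 largest differences.

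Jasmonate genes were lower after 5-AC in the 1 platform-named case, PDF1.2, and in 2 of 3 named through the study's tables. PDF1.2, a defensin that jasmonate and ethylene induce together, read 6.24, 5.68 and 5.94 after 5-AC and 11.85, 10.83 and 11.16 in ddm1, and AOS, the allene oxide synthase of jasmonate synthesis, read 4.91, 5.39 and 5.11 against 8.96, 10.07 and 8.90. Neither gene had overlapping groups, with differences of -5.33 ± 0.31 and -4.17 ± 0.36 (SE). MYC2, the master transcription factor, differed by -1.19, a call lost without single arrays (adjusted p from 0.091 to 0.12, limma). JAZ10, a repressor of jasmonate responses, was higher after 5-AC by 3.24.

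Senescence genes were higher after 5-AC in 3 of 3 platform-named members, against 20.8% of all probe sets. Of 5 further members, named through the study's tables of changed genes, 4 were higher. Of the 15 genes in that list, 8 had a named probe set. SAG29, a sugar transporter of aging leaves, read 10.22, 11.45 and 10.48 after 5-AC and 2.45, 2.86 and 2.78 in ddm1. DIN2, a dark-inducible beta-glucosidase, read 10.61, 10.95 and 10.32 against 3.21, 2.46 and 3.75, and Ws lay between them at 5.94, 5.58 and 5.02. The senescence markers SAG13 (6.28) and SAG12, a cysteine protease (3.92), and the regulator WRKY53 (4.69) followed. The exception was the glutamine synthetase GLN1;4, lower by a log2 difference of -3.87. Other genes in the 12 largest were XTH11 (7.28), a cell wall transglucosylase, the polygalacturonase ADPG1 (7.22), CEP1, a cysteine endopeptidase of dying cells (6.95), and GAT1_2.1 (6.25). Genes of NAC transcription factors, a family with many senescence regulators, were higher in 17 and lower in 3 of 20 cases, with NAC003 at 5.97. These 20 were named through the study's tables of changed genes. The only platform-named NAC probe set differed by 0.15 and was not called.

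Root hair genes were lower after 5-AC in 3 of 3 platform-named members, against 17.7% of all probe sets. The 5 further members, named through the study's tables of changed genes, were all lower too. Of the 17 genes in that list, 8 had a named probe set. RHS13 read 2.64, 2.59 and 4.55 after 5-AC and 9.98, 9.51 and 9.03 in ddm1, PRP3 read 2.09, 2.07 and 3.33 against 8.71, 8.50 and 8.12, and RHS19 read 2.28, 2.57 and 4.86 against 9.26, 9.06 and 8.49. As with photosynthesis, the third 5-AC array was the highest of its group in these 3 genes, though still far below ddm1. EXPA7 (-2.53), EXPA18 (-2.80) and XTH26 (-2.07), which act on cell walls, are named by the platform. RHD6, a regulator that starts root hair growth, differed by -1.41, a call lost without single arrays (adjusted p from 0.069 to 0.090, limma). CASP1 and CASP2, which build the Casparian strip of the endodermis, differed by -6.28 and -4.50, and all 6 members of their family with a name, each of them through the study's tables, were lower. The thalianol pathway of the root, with THAS1 (-2.94), THAH (-3.21) and THAD (-4.68), and the phosphate exporter PHO1 (-2.64) were lower as well, while the nitrate transporter NRT2.1 was higher by 4.05. All of these other root genes are named through the study's tables. The only platform-named one, the beta-glucosidase PYK10, differed by -0.48 and did not pass (adjusted p = 0.051, limma), though it did with the replicate block (adjusted p = 0.030, limma).

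Outside the lists, AT3G29410 of the terpene synthases had the lowest difference of all, with 3.79, 2.84 and 5.65 after 5-AC and 11.62, 11.42 and 11.52 in ddm1. The short-chain dehydrogenase AT1G64590 read 3.33, 4.18 and 3.47 against 10.47, 11.55 and 10.98. NCED4, a carotenoid cleavage enzyme (-7.21), AAP2, an amino acid permease (-7.00), the lipid transfer family proteins AT3G53980 (-6.71) and AT4G22490 (-6.60), AT3G62550 (-6.57), the peroxidase AT4G26010 (-6.48), AT4G00780 (-6.39) and AT3G45160 (-6.26) completed the 12 lowest. In these genes the ddm1 mean stood within 2-fold of Ws.

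Large gene families had calls on both sides, in unequal shares. Of 51 UDP-glucosyltransferase probe sets, all named by the platform, 6 (11.8%) were higher after 5-AC and 14 (27.5%) in ddm1, with a median of 0.02. Over all probe sets these shares were 20.8% and 17.7%. UGT76B1, which glucosylates defence metabolites, was higher after 5-AC by 2.61, and UGT72E1 was lower (-3.19). Glutathione transferases were higher in 2 (14.3%) and lower in 8 (57.1%) of 14 platform-named cases, led by GSTF4 (-3.68), and GSTU28 differed by -3.17. Of 5 named through the study's tables, 3 were higher and 2 lower. Expansins named by the platform were lower in 6 of 14 (42.9%) and higher in 1 (7.14%), EXPB2. This gene read 5.86, 6.35 and 6.30 after 5-AC against 2.39, 2.27 and 2.42, while EXPA15 differed by -3.35. Of expansins named through the study's tables, 2 of 2 were lower. Among 22 platform-named beta-glucosidases 4 were higher and 3 lower, with BGLU45 at 5.55 and BGLU40 at 3.85 against BGLU33 at -3.77 and BGLU28 at -3.59. In the xenobiotic list CYP81D8, a cytochrome P450 that xenobiotics induce, was higher by 5.55 and CYP710A1 by 2.39, both named through the study's tables. Its platform-named members were UGT73B5 (1.36) and UGT73B4 (1.18), higher, and GSTU25 (-1.64), lower, and all 3 lost their calls without single arrays (adjusted p from 0.052 to 0.12, limma) and with the replicate block (adjusted p = 0.099, 0.050 and 0.078, limma).

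All 4 glucosinolate genes named through the study's tables were lower after 5-AC, with the regulator MYB28 of the aliphatic branch at -3.96, its chain elongation gene MAM3 at -2.07, MYB34 of the indolic branch at -3.50 and CYP79B3 at -2.69. BCAT4, the only platform-named member, which starts chain elongation from methionine, read 5.67, 6.05 and 6.29 after 5-AC and 6.002, 6.207 and 5.601 in ddm1, below 7.38, 7.05 and 7.49 in Ws. The groups overlapped, and the difference was 0.06 (95% interval -0.52 to 0.65, adjusted p = 0.83, limma). Of the 4 platform-named flavonoid genes none passed, and the flavanone hydroxylase F3H was lower (-2.71), a call lost without single arrays (adjusted p from 0.050 to 0.079, limma). The heat shock protein HSP17.4 (4.096) and the chaperone BIP3 (2.47), both named through the study's tables, were higher, and the platform-named HSP22.0 (0.49, adjusted p = 0.40, limma) did not pass.

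The flowering repressor FLC lay on opposite sides of Ws. It read 7.16, 7.30 and 7.90 after 5-AC, 2.203, 2.241 and 2.257 in ddm1 and 4.22, 4.55 and 3.79 in Ws, and no array of one group reached another group. The direct difference was 5.22 ± 0.20 (SE, adjusted p = 1.5e-04, limma). Its relative MAF1 read 5.78, 5.87 and 6.12 after 5-AC and 3.21, 2.85 and 2.51 in ddm1, with a Ws mean of 3.70. Both are named through the study's tables. The platform-named member of the flowering list, GI, differed by -1.13 and did not pass (adjusted p = 0.097, limma).

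Of 10 reference genes in the list, 7 had a named probe set. Of the 3 platform-named ones 1 was higher after 5-AC, 1 was lower and SAND was not called. The 4 named through the study's tables were all called, 2 on each side. Of all probe sets named in that way 98.0% were called, so these 4 say little about reference genes in general. SAND stood at 7.64 ± 0.16 after 5-AC and 7.65 ± 0.02 in ddm1 (SD, n = 3), with a difference of -0.01 (95% interval -0.23 to 0.22). ACT2 was lower after 5-AC (-1.33) and ACT7 higher (0.83), UBC21 and the tubulin TUA4 were lower (-0.70 and -2.15), and TIP41L and GAPC1 were higher (1.198 and 0.72).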

How the data were processed

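The deposited log2 values were computed by the authors with gcRMA, which corrects background by probe sequence, quantile-normalizes and summarizes probe sets, on the biotin-labelled ATH1 arrays of all groups. Scanner values and detection calls were not analysed here. Precision is set by having 3 arrays a group. The 64 control probe sets were left out. The 3 arrays of 5-AC and the 3 of ddm1 were fitted with limma 3.58.1 in R 4.3.3 (lmFit, eBayes, no covariate) and p-values adjusted by Benjamini-Hochberg over 22746 probe sets at 0.05. Replicates are called biological by the study, and whether they came from separate sowings is not given in the sources used here. Same-numbered arrays deviated together from the means of their groups, with correlations of 0.249, 0.12 and 0.103, against -0.172 to 0.036 for other pairs. Such deviations cancel within a group, so the values for other pairs are not independent of those for same-numbered ones. The replicate number was run as a block among the alternatives. In simulated data over 22746 probe sets, 100 were changed by 1 and 100 by 3 on the log2 scale and the rest left unchanged. Of these changes 48 and 84 were recovered, with 5 false calls in 22546. In the real comparison 38.5% of probe sets were called. The adjustment depends on the share that differs, so these rates do not carry over to it.

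Genes were named by the platform annotation, updated through RefSeq (13513 probe sets with 1 gene), or else through the study's supplementary tables (1724), while 569 matched several genes and 6940 stayed unnamed. No value of those tables was used. Some repair genes are counted but not reported singly. Ranges of locus codes marked the pericentromeres. Named genes were the 12 highest and 12 lowest called differences, the 10 and 10 of transposable elements, the 6 largest of each of 27 lists and of 17 families, and genes the study names, beside plastid and mitochondrial genes. The 12 and 12 and the 10 and 10 were drawn only from probe sets for 1 gene whose groups did not overlap. The members, lists and rules were chosen with earlier results of these data known. Values near the floor have no order, and a fold against them is uncertain.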

Additional observations from a re-analysis of the deposited data

How the results depend on the processing

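Counts given in this order are probe sets higher after 5-AC, higher in ddm1, and transposable element probe sets higher in ddm1 and after 5-AC, with 4720, 4033, 131 and 17 as reported. A test against a 2-fold difference gave 1056, 1342, 47 and 7, and the methods' t-test with Benjamini-Hochberg adjustment gave 2235, 1889, 64 and 9. Without adjustment that t-test gave 48 for the last count. With means at or above the median, fewer probe sets were tested and the last counts were 64 and 9. With single-sequence probe sets only, 69 were higher in ddm1, and a fit over all 12 arrays gave 36 after 5-AC. Leaving out single arrays gave 3518 to 5095, 3073 to 4249, 109 to 117 and 12 to 29. The highest of these last counts came without the third 5-AC array. The replicate block gave 4038, 3442, 110 and 14, within 1.5 times of each. Of 208 probe sets of named genes followed through the alternatives, 178 were called. Of these calls 20 were lost without at least 1 of the single arrays, 13 with the block and 48 with the adjusted t-test, and 0 changed direction. Genes that were not called changed sign with housekeeping centring (BCAT4 at -0.10, EXO1 at -0.10, a DME probe set at -0.15), with median centring (SAND at 0.052) and without single arrays (BCAT4 from -0.10 to 0.23, SAND from -0.10 to 0.05). For the remaining alternatives the counts stayed within 1.5 times, and the cause of the changes was not tested.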

Other observations

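A set of genes that are not transposable elements stood with them on the ddm1 side, and was chosen after its values were seen. Of the 160 such probe sets that were higher in ddm1 and had a Ws mean nearer to 5-AC, 23 lie in the pericentromeric windows and 82 on the arms, and 61 have no single gene name. AT3G44070 read 2.01, 2.18 and 2.06 after 5-AC, 6.52, 6.04 and 5.99 in ddm1 and 2.02 in Ws on average. AT1G77960 read 2.64, 2.06 and 3.04 after 5-AC and 6.33, 6.81 and 5.90 in ddm1. AT1G03410 read 5.10, 5.25 and 4.87 after 5-AC and 8.54, 8.49 and 8.23 in ddm1, with Ws at 5.02 on average. AT5G07570 and AT1G59930 differed by -4.05 and -3.38, with 5-AC between Ws and ddm1 in both.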
